A study of Mus musculus with 6 samples.

Results

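The genes described here encode 10 feedback inhibitors of TGF-beta signalling: Smad7, Ski, Skil, Pmepa1, Ldlrad4, Smurf1, Smurf2, Tgif1, Nedd9 and Spsb1. They were taken by gene symbol from a table of 17985 genes, and all 10 were present. The table comes from RNA-seq of iNKT1 cells, the T-bet-expressing subset of invariant natural killer T cells, from the thymus of untreated mice on a C57BL/6 background. The 3 control libraries (Ctrl) have the genotype Tbx21CreTg with Rosa26-LSL-YFP+/+, and the 3 conditional knockout libraries (cKO) carry in addition the loxP-flanked allele Tgfbr2F/F. Both groups thus share the Cre transgene and the fluorescent reporter, and because the Cre is driven by Tbx21, deletion is limited to cells that express T-bet or did so earlier. Values are CPM, the reads of a gene scaled by the size of the library.

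TGF-beta binds the receptor subunit encoded by Tgfbr2, which brings in and activates a type I subunit. This phosphorylates Smad2 and Smad3, which join Smad4 and act on transcription in the nucleus. Several inhibitors of the pathway are themselves induced by it and so form negative feedback loops. In thymic and tissue T cells TGF-beta is best known for inducing Itgae, the gene of the integrin chain CD103.

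The cells matched their label by sums of marker genes. The summed level of 5 pan-T-cell genes (Cd3e, Cd3g, Trac, Cd2 and Lck) was 5830 to 6742 CPM in Ctrl and 5242 to 6957 CPM in cKO, and that of 5 iNKT1 genes (Tbx21, Il2rb, Klrb1c, Ifng and Cxcr3) was 4344 to 5872 CPM in Ctrl and 5149 to 7334 CPM in cKO. Marker sums for B cells, myeloid cells, double-positive thymocytes, epithelial and stromal cells, erythroid cells and iNKT17 cells each stayed between 0.0755 and 12.1 CPM in every library, with Ccr6, Sdc1, Pax5, Adgre1, Ptcra, Rag2, Krt5, Krt8 and the globin genes among the genes of these lists not used here. The iNKT2 sum was 442 to 598 CPM in Ctrl and 389 to 549 CPM in cKO. Most of the iNKT1 sum came from Il2rb, at 2357 to 3521 CPM in Ctrl and 2948 to 4383 CPM in cKO. Klrb1c was uneven, at 566, 180 and 703 CPM in the Ctrl libraries (replicates 1, 2 and 3) and 640 to 1021 CPM in cKO. Depth ran from 28832779 to 68092478 reads per library. Both replicate 3 libraries stood apart from the other 4: these list 4406 (Ctrl) and 4590 (cKO) genes at 0, against at most 5 elsewhere, and the principal component that set them apart held 85.1% of the variance. Each group has 1 such library, and the members' values below are given by replicate; most other genes are given as means over 3 libraries. Nothing in the labels says which animals the libraries came from, so p-values measure the spread between libraries. Tgfbr2 itself measured 461, 461 and 425 CPM in the Ctrl libraries (replicates 1, 2 and 3) against 289.8, 257.6 and 274 CPM in the cKO ones, over the whole gene.

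Of the 10 inhibitors, 4 were lower in cKO past the threshold and none was higher. These were Spsb1, Skil, Pmepa1 and Ski, which were left at 3.07%, 19.3%, 23.1% and 28.6% of their Ctrl means. The test was limma on log2(CPM + 1) with Benjamini-Hochberg adjustment over the 15691 genes that averaged 1 CPM or more, at an adjusted p of 0.05; all 10 members met that filter. By this rule 0.459% of all tested genes were lower and 0.204% higher in cKO. At an unadjusted limma p under 0.05, 7 members were lower and 0 higher, against 3.68% of all tested genes lower, and no other test that was run called a member higher. With the replicate number as a block, 7 of 10 passed, all lower, against 1.64% of all tested genes; the additional genes were Smad7, Ldlrad4 and Smurf2. On the recovered reads, edgeR with the block and DESeq2 also called 7 members lower, against 1.56% and 1.73% of all tested genes, whereas edgeR without the block called 1, against 0.185%. Leaving out Ctrl replicate 2 left 1 limma call among the members, against 0.065% of all tested genes lower in that fit. There were 2 without Ctrl replicate 3 (0.128% of all), without cKO replicate 1 (0.373%) or without cKO replicate 2 (0.121%), 3 without Ctrl replicate 1 (0.112%) and 4 without cKO replicate 3 (0.439%). The median log2 fold change of the 10 members was -1.01, against -0.0382 over all tested genes. In 8 members every cKO library lay below every Ctrl library, a pattern that 7.1% of all tested genes showed. The members were chosen with earlier results of these data known. Setting their counts and median beside those of all tested genes is therefore a description and not an independent test. As in any bulk sample, fewer cells expressing a gene and less RNA per cell cannot be told apart.

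**Figure D1:**
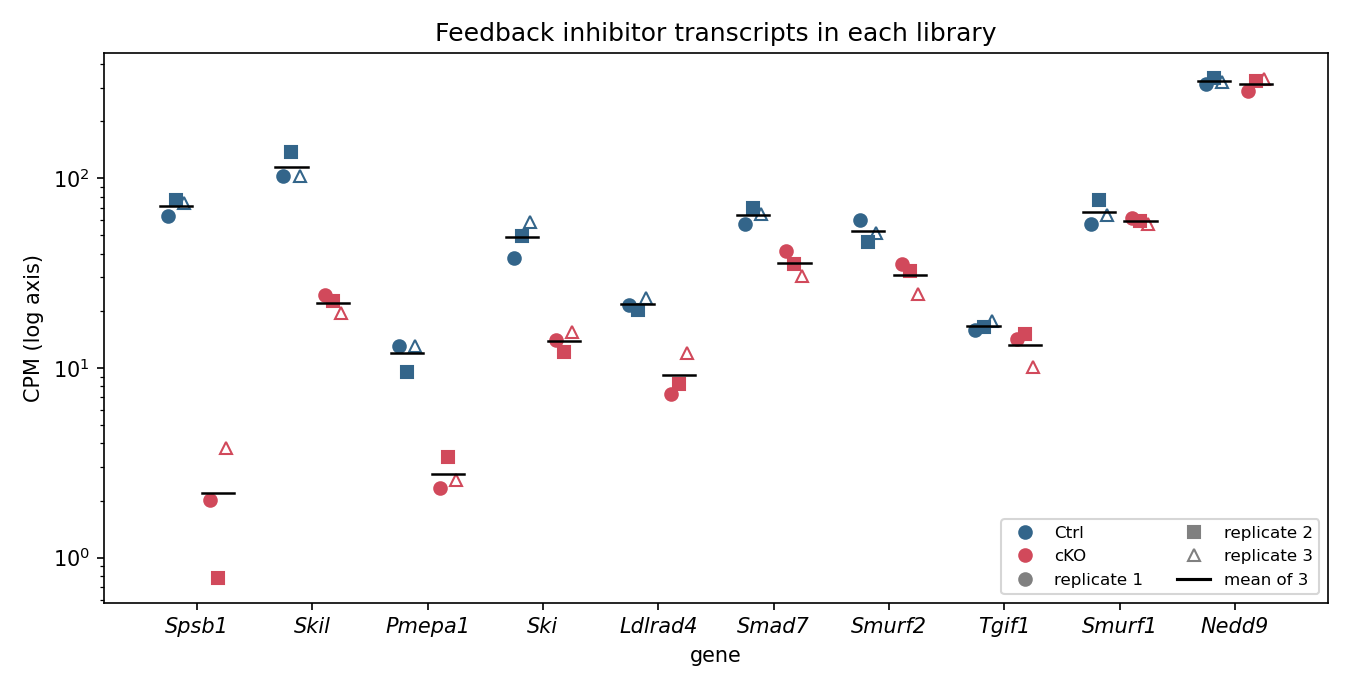
CPM of the 10 genes in each library on a log axis, Ctrl in blue and cKO in red, with circles, squares and open triangles for replicates 1, 2 and 3 and a black line at the mean of 3 libraries. Genes are ordered from the strongest to the weakest difference, and the groups overlap only for Smurf1 and Nedd9.

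Promoter sequences are shown for 5 of the inhibitors, because the group divides into genes that differed strongly between the groups and genes that did not: Spsb1 and Ski from the first kind, the paralogs Smurf2 and Smurf1, and Nedd9, whose level was nearly the same in both groups. Each window of 300 bases comes from RefSeq on GRCm38.p6 and spans 250 bases before to 50 bases after an annotated transcript start, read 5′ to 3′ on the strand of the gene, which is the minus strand for all 5. Capitals mark the short SMAD-binding box CAGAC (or its reverse complement GTCTG) and the GC-rich SMAD-binding motif GGCGC (or GCGCC); adjoining or overlapping matches run together. The windows lie at chr4:149954957-149955256 (Spsb1), chr4:155222486-155222785 (Ski), chr11:106920666-106920965 (Smurf2), chr5:144965781-144966080 (Smurf1) and chr13:41358952-41359251 (Nedd9, a start inside the gene's longest model).
Spsb1: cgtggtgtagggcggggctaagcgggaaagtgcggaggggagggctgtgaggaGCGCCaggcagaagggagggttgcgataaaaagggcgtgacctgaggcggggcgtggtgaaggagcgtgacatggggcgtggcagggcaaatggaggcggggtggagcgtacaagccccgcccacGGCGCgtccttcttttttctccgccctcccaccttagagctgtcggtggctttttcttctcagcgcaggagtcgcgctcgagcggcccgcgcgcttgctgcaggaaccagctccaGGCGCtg
Ski: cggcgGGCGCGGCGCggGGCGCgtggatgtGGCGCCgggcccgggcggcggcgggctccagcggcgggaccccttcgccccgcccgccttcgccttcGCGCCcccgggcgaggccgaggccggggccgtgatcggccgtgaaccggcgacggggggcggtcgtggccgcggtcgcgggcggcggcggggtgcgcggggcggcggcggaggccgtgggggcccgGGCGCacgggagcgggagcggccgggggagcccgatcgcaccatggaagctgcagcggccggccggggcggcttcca
Smurf2: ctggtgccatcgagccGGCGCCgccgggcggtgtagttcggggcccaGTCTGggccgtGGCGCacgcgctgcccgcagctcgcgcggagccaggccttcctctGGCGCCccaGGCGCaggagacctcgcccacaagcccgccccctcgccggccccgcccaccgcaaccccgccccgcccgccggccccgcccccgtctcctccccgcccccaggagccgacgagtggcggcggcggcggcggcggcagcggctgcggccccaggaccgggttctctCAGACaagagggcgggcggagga
Smurf1: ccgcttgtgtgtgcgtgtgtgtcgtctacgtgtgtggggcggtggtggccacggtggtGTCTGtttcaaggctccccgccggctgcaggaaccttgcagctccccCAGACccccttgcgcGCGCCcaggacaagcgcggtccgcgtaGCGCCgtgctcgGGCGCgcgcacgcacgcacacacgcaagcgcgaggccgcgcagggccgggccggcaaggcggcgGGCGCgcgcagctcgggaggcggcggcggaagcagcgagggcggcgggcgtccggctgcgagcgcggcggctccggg
Nedd9: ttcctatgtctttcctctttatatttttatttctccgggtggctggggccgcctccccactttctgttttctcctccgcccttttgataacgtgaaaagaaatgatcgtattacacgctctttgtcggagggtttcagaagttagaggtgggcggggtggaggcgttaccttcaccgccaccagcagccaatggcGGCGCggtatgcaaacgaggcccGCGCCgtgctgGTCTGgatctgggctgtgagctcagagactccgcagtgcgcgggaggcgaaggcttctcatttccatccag

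CAGAC was found 0 times in the windows of Spsb1 and Ski, 2 times in those of Smurf2 and of Smurf1, and 1 time in that of Nedd9. GGCGC matched 3 times for Spsb1, 7 for Ski, 6 for Smurf2, 4 for Smurf1 and 2 for Nedd9. Both motifs are common: on either strand CAGAC occurs in 49.6% and GGCGC in 36.9% of the 32851 promoter windows in the table. The share of G and C in the 5 printed windows was 66.3% for Spsb1, 85.3% for Ski, 80.3% for Smurf2, 76.3% for Smurf1 and 55.7% for Nedd9, against a median of 52.7% over all windows. Tgif1 has 5 windows in the table, at 37.3% to 68.7%, of which 2 lie below that median, 2 hold no CAGAC and 2 no GGCGC. The palindromic element GTCTAGAC occurs in 70 windows, or 0.213%, and in none of the 10 windows of the 6 matched members. The other members, without a matched window, are Smad7, Skil, Pmepa1 and Ldlrad4. In the 5 printed windows, then, GGCGC was present in all, and CAGAC was missing from those of Spsb1 and Ski and present in the other 3. With Skil and Pmepa1 absent, these windows do not cover all members called lower and give no comparison of called with uncalled genes. A missing match says only that these letters are not in the window.

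Spsb1 showed the widest difference. It encodes an adaptor with SPRY and SOCS-box domains that brings a ubiquitin ligase to its targets, among them the TGF-beta type II receptor. The gene (ENSMUSG00000039911, chromosome 4, 149896283 to 149955043, minus strand) had levels of 63.5, 76.5 and 74.3 CPM in Ctrl, by replicate, and of 2.01, 0.785 and 3.77 CPM in cKO. The lowest Ctrl library stood 16.8-fold above the highest cKO library. Its mean went from 71.4 ± 6.92 to 2.19 ± 1.503 CPM (SD, n = 3 each), and the log2 fold change of -4.61 (standard error 0.346, limma adjusted p 0.00444) was the 5th lowest among all 15691 tested genes. The remaining signal rested on 58, 33 and 257 reads. Exact Poisson intervals at 95%, which cover counting error only, were 1.53 to 2.60, 0.540 to 1.10 and 3.33 to 4.27 CPM, so the cKO libraries differed from one another by more than counting error. The share left in same-numbered pairs was 3.17%, 1.03% and 5.08%. Without Ctrl replicate 2 the limma adjusted p was 0.0502, and it passed without any other single library; under edgeR's unblocked quasi-likelihood test it was 0.0569.

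The other members of its family were measured too. Spsb2 averaged 12.4 ± 0.956 CPM in Ctrl (SD, n = 3) against 12.8 ± 1.80 CPM in cKO (SD, n = 3). Spsb3 was at 25.9 ± 5.35 and 29.7 ± 2.49 CPM, and Spsb4 at 0.874 ± 0.646 and 1.79 ± 1.02 CPM. None of these 3 paralogs passed with limma, with or without the block, with DESeq2 or with edgeR, and 0 had an unadjusted limma p under 0.05.

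Skil and Ski encode SnoN and SKI, paralogous nuclear proteins that bind SMAD complexes and recruit corepressors to the genes these complexes occupy. Skil (ENSMUSG00000027660, chromosome 3, 31095058 to 31122577, plus strand) measured 102.8, 136.7 and 102.8 CPM in the Ctrl libraries (replicates 1, 2 and 3) against 24.2, 22.5 and 19.4 CPM in the cKO ones. The cKO libraries lay close together, and the lowest Ctrl library was 4.25-fold above the highest of them. Skil fell by 2.31 on the log2 scale (standard error 0.148, limma adjusted p 0.00241), and this call held when any single library was left out, with adjusted p values from 0.00507 to 0.0219. Ski (ENSMUSG00000029050, chromosome 4, 155154075 to 155222592, minus strand) measured 37.8, 49.7 and 58.7 CPM in the Ctrl libraries (replicates 1, 2 and 3) against 14.05, 12.2 and 15.5 CPM in the cKO ones. Its Ctrl libraries were spread more widely, with a coefficient of variation of 21.6%, yet each was at least 2.43-fold above the highest cKO library. The promoter window of Ski is the richest of the 5 in G and C. The log2 fold change of Ski was -1.72 (standard error 0.185, limma adjusted p 0.0156). Ski missed the threshold when Ctrl replicate 2 (0.115) or 3 (0.0557) or cKO replicate 1 (0.0524) or 2 (0.0916) was left out, and under edgeR without the block (0.0569).

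Pmepa1 and Ldlrad4 encode a second pair of related proteins, which sit in membranes, keep receptor-activated SMADs from the receptor complex and carry motifs that bind HECT-type ubiquitin ligases. Pmepa1 (ENSMUSG00000038400, chromosome 2, 173224458 to 173276533, minus strand) had levels of 13.1, 9.55 and 13.1 CPM in Ctrl, by replicate, and of 2.32, 3.38 and 2.57 CPM in cKO, from 67 to 175 reads. Every cKO library was lower than every Ctrl library, by at least 2.83-fold. Pmepa1 fell by 1.78 on the log2 scale (standard error 0.251, limma adjusted p 0.0385). This call was lost when any single library was left out (adjusted p 0.0855 to 0.300), under TMM scaling (0.0530), with a filter at 5 CPM (0.0724), under limma-voom (0.0952) and under edgeR without the block (0.107), and it held with the block (0.00234). In the authors' deposited table Pmepa1 had a log2 fold change of -2.05 and an adjusted p of 0.99998.

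Ldlrad4 (ENSMUSG00000024544, chromosome 18, 67933257 to 68255549, plus strand) measured 21.6, 20.1 and 23.4 CPM in the Ctrl libraries (replicates 1, 2 and 3) against 7.25, 8.21 and 11.95 CPM in the cKO ones. Here cKO replicate 3 was the highest of its group, and the groups did not overlap. The log2 fold change of -1.19 (standard error 0.202) did not pass in limma without the block (adjusted p 0.0795) and passed with it (0.00513), without cKO replicate 3 (0.0241), with a filter at 5 CPM (0.0486), in replicates 1 and 2 alone (0.00885) and under DESeq2 (0.000553). Ldlrad4 missed the threshold without the block under TMM scaling (0.218), median-ratio factors (0.159), limma-voom (0.170) and edgeR (0.338). Among the 6 limma fits that each left out a library it passed in 1, and the highest adjusted p was 0.351. In the authors' deposited table its adjusted p was 0.99998. The share left was 33.6%, 40.8% and 51.0% in same-numbered pairs, in place of 17.7%, 35.4% and 19.6% for Pmepa1. The model of Ldlrad4 in the table ends at 68255549, short of the end at 68268630 in GENCODE release M21, so reads from the last exons of longer forms may be missing from its values.

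Smad7, the inhibitory SMAD, occupies the activated type I receptor and brings SMURF ubiquitin ligases to it. The gene (ENSMUSG00000025880, chromosome 18, 75367529 to 75395935, plus strand) had levels of 57.2, 69.4 and 64.9 CPM in Ctrl, by replicate, and of 41.6, 35.3 and 30.6 CPM in cKO. All cKO libraries were lower, and 56.1% of the Ctrl mean was left. The log2 fold change of Smad7 was -0.82 (standard error 0.139), at a limma adjusted p of 0.0795 without the block and 0.0138 with it. Smad7 also passed without the block in replicates 1 and 2 alone (limma adjusted p 0.0322), with a filter at 5 CPM (0.0469) and under DESeq2 (4.85e-08). It missed the threshold in all 6 limma fits that each left out a library (adjusted p 0.0817 to 0.375). The same held without the block under TMM scaling (0.0966), median-ratio factors (0.0695), limma-voom (0.0725) and edgeR (0.0945). In the authors' deposited table Smad7 had a log2 fold change of -0.78 and an adjusted p of 0.00203.

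Smurf1 and Smurf2 encode the HECT-type ubiquitin ligases that Smad7 recruits. Smurf2 (ENSMUSG00000018363, chromosome 11, 106820066 to 106920715, minus strand) measured 60.2, 46.2 and 51.2 CPM in the Ctrl libraries (replicates 1, 2 and 3) against 35.4, 32.5 and 24.5 CPM in the cKO ones, with no overlap. Its log2 fold change was -0.76 (standard error 0.168), with a limma adjusted p of 0.205 without the block and 0.0156 with it, and a DESeq2 adjusted p of 0.000136. Smurf2 passed in 0 of the 6 limma fits that each left out a library (adjusted p 0.217 to 0.633). Smurf1 (ENSMUSG00000038780, chromosome 5, 144876495 to 144965847, minus strand) had levels of 57.2, 76.8 and 64.001 CPM in Ctrl, by replicate, and of 61.7, 59.4 and 57.2 CPM in cKO. The groups of Smurf1 overlapped, and cKO was higher than Ctrl in the replicate 1 pair and lower in the other two. Its log2 fold change was -0.14 with a 95% interval of -0.43 to 0.16, and it passed neither without nor with the block (limma adjusted p 0.99998 and 0.717).

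Whether the paralogs differed from each other in their response was tested on the log2 ratio of the genes' CPM within each library, which is free of scaling between libraries; these 3 pairs were chosen after their values were seen. The ratio of Smurf2 to Smurf1 went from -0.33 ± 0.40 in Ctrl to -0.96 ± 0.23 in cKO (SD, n = 3 each), with no overlap between groups. For Pmepa1 over Ldlrad4 the values were -0.88 ± 0.18 and -1.71 ± 0.47, again with no overlap. Both had an exact two-sided permutation p of 0.1, the smallest that 3 against 3 libraries can give, and 0.15 after adjustment over the 3 pairs. Skil over Ski went from 1.24 ± 0.37 to 0.66 ± 0.30 with overlapping groups (exact permutation p 0.2). Within same-numbered pairs the difference in Skil over Ski was the most even, at -0.66, -0.58 and -0.49, against -0.88, -0.14 and -0.90 for Smurf2 over Smurf1 and -0.92, -0.21 and -1.38 for Pmepa1 over Ldlrad4. All 3 ratios were lower in cKO in all 3 pairs, and the exact sign-flip permutation p within pairs, added after seeing the data, was 0.25 for each, the smallest that 3 pairs can give. Neither permutation test can reach 0.05 here.

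Tgif1 and Nedd9 complete the group. Tgif1 encodes a homeodomain repressor that binds activated SMADs. The gene (ENSMUSG00000047407, chromosome 17, 70844205 to 70853546, minus strand) had levels of 15.9, 16.4 and 17.6 CPM in Ctrl, by replicate, and of 14.3, 15.04 and 10.1 CPM in cKO. The groups did not overlap, but the gap was narrow, and most of the difference lay in the replicate 3 pair, where 57.7% was left against 89.8% and 91.8% in the other pairs. Its log2 fold change of -0.33, with a 95% interval of -0.76 to 0.094, passed in none of the fits (limma adjusted p 0.99998, or 0.497 with the block).

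Nedd9 encodes a docking protein of the CAS family that acts in integrin and antigen receptor signalling and is reported to bind SMAD proteins. It was the most abundant of the 10, with 312.5, 337.6 and 323 CPM in the Ctrl libraries (replicates 1, 2 and 3) against 286.7, 323.7 and 335 CPM in the cKO ones (ENSMUSG00000021365, chromosome 13, 41309916 to 41487320, minus strand). The ranges overlapped widely. Its log2 fold change of -0.0439 had a 95% interval of -0.26 to 0.17, which leaves out any change as large as that of Smad7, and its sign turned under TMM and median-ratio scaling. Its paralog Cass4 averaged 1.15 ± 0.739 CPM in Ctrl (SD, n = 3) against 1.32 ± 0.688 CPM in cKO (SD, n = 3).

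**Figure D2:**
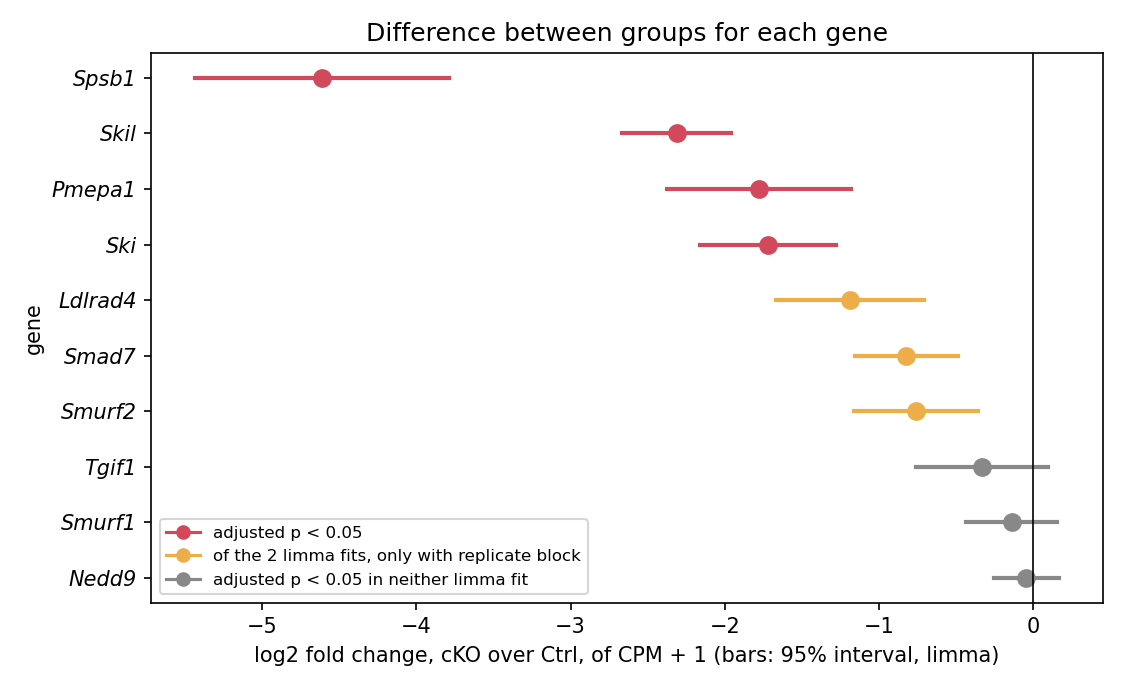
Log2 fold change of CPM + 1, cKO over Ctrl, with the 95% interval of the limma fit for each gene; red genes passed an adjusted p of 0.05, of these limma fits, orange genes passed only in that with the replicate block and grey genes in neither. The intervals of Tgif1, Smurf1 and Nedd9 include 0.

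The levels were also compared within same-numbered pairs. In 8 of the 10 genes cKO was lower in all 3 same-numbered pairs. These are the 8 genes in which every cKO library lay below every Ctrl library, which fixes the direction in each pair. Of all tested genes, 7.1% showed that complete separation, and the share lower in all pairs was not counted. The exceptions were Smurf1, at 107.9% of Ctrl in replicate 1, and Nedd9, at 103.7% in replicate 3. Skil stayed between 16.5% and 23.5% of Ctrl and Ski between 24.5% and 37.2%. Smad7 was left at 72.7%, 50.8% and 47.2% and Smurf2 at 58.8%, 70.2% and 47.9%, so each differed least in one of the first pairs and most in replicate 3. In replicates 1 and 2 alone, without the libraries that stood apart, limma called 6 members lower against 0.991% of all tested genes.

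**Figure D3:**
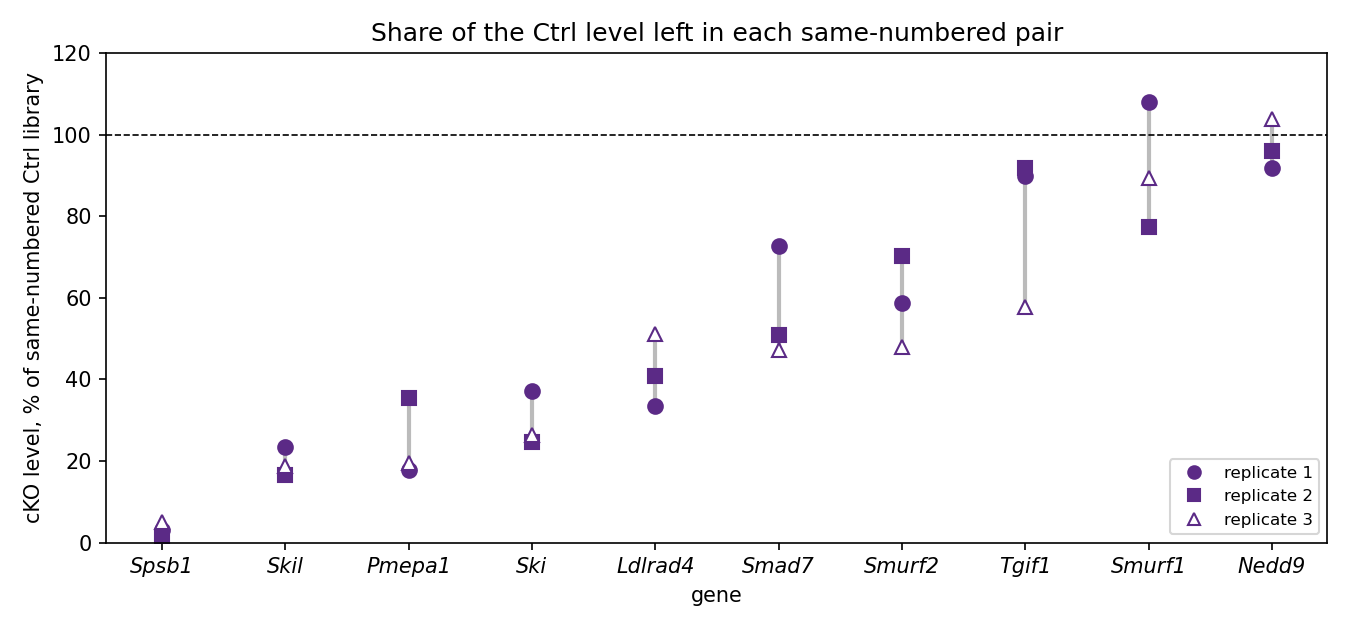
The cKO level as a percentage of the Ctrl library of the same number for each gene; the dashed line marks equal levels. Spsb1 lies between 1.03% and 5.08% in all 3 pairs, while Nedd9 and Smurf1 straddle the dashed line.

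The authors' deposited table gave 5 of the 10 members an adjusted p under 0.05 (Spsb1, Skil, Ski, Smad7 and Smurf2), all lower, where 0.456% of all genes in that table were lower past that value. It marks 4 of these as lower, against 0.378% of its genes, all but Smurf2, whose adjusted p in the authors' deposited table was 0.0226. Of the 4 members called here by limma without the block, Spsb1, Skil and Ski thus also passed in the authors' deposited table and Pmepa1 did not. Smad7 and Smurf2 passed there and not in limma without the block, and both passed here with the block and under DESeq2.

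Levels of different genes were compared per kilobase of exon, from GENCODE release M21 on GRCm38. In Ctrl, Nedd9 led at 50.9 ± 1.98 CPM per kb, followed by Spsb1 at 16.2 ± 1.57, Smad7 at 14.1 ± 1.36, Skil at 11.8 ± 2.02, Smurf1 at 10.4 ± 1.57, Ski at 8.76 ± 1.89 and Smurf2 at 8.53 ± 1.15 CPM per kb (SD, n = 3 each). From Spsb1 to Smurf2 each gene's range overlapped that of the next, so among these only Nedd9 stood clear of its neighbour. By this length Spsb1 (lowest library 14.5) overlapped Smad7 (highest 15.3) and lay above the range of Skil (highest 14.1). Per kb of the longest protein-coding transcript Spsb1, at 23.1 ± 2.24, lay above the range of the next gene, there Skil, at 17.0 ± 2.91. Per kb of exon, Ldlrad4, Tgif1 and Pmepa1 followed Smurf2 at 4.04 ± 0.310, 2.96 ± 0.154 and 2.43 ± 0.419 CPM per kb, with no overlap between neighbours by that length. In cKO the order changed: Nedd9 stayed first at 49.4 ± 3.97, Smurf1 and Smad7 followed with overlapping ranges at 9.38 ± 0.355 and 7.92 ± 1.22, and Spsb1 moved from second to last at 0.498 ± 0.342 CPM per kb, overlapping Pmepa1 at 0.561 ± 0.112. By the longest protein-coding transcript Pmepa1 was last in cKO at 0.608 ± 0.122 and Spsb1 next to last at 0.708 ± 0.486, again overlapping. The places of Ldlrad4 and Tgif1 depend on the length used: per kb of the longest protein-coding transcript they were at 8.70 ± 0.668 and 9.70 ± 0.504 in Ctrl, where both overlapped Ski. For Ldlrad4 the exon length from M21 includes bases past the end of the model on which its reads were counted. Its level per kb of exon may therefore be too low.

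**Figure D4:**
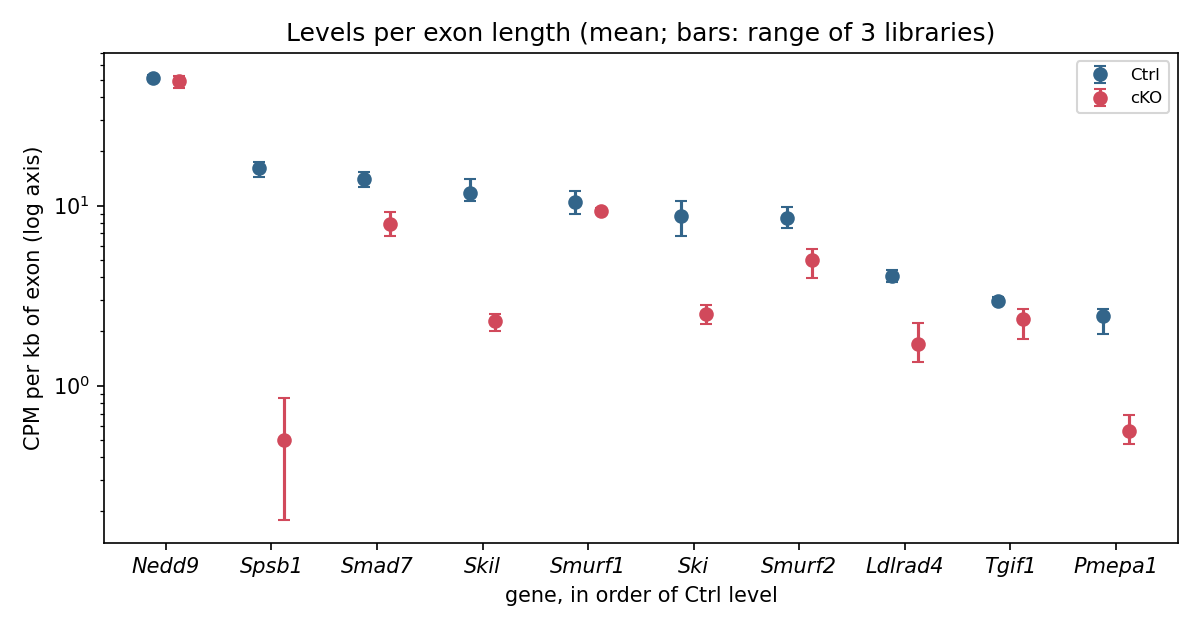
CPM per kilobase of exon on a log axis for each gene in Ctrl (blue) and cKO (red), as the mean of 3 libraries with bars from the lowest to the highest library. Nedd9 is at about the same height in both groups, and Spsb1 drops from the second place to the last by this length, where its range overlaps that of Pmepa1.

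The rest of the pathway was examined with lists of its parts, counted by limma over all tested genes. Ligands and activators, such as Tgfb1 and Furin, had 0 of 8 tested members past the threshold and a median log2 fold change of 0.22. Their smallest unadjusted p was that of Furin, which cleaves the precursor of the ligand. Its mean was 51.3 ± 22.5 CPM in Ctrl (SD, n = 3) against 70.0 ± 3.38 CPM in cKO (SD, n = 3). SMAD transducers and their partners had 0 of 12, with 3 at an unadjusted limma p under 0.05 and 2 called by DESeq2, against 6.02% and 3.53% of all tested genes in either direction. The smallest p there was that of Runx3, a partner of SMADs and a regulator of CD8 lineage genes, at 213 ± 10.9 and 177 ± 5.72 CPM. Smad3 was at 124 ± 14.4 and 152 ± 11.96 CPM. Another 18 inhibitors outside the group, among them ubiquitin ligase genes such as Itch and Wwp1, had 0 past the threshold, 2 at an unadjusted limma p under 0.05 and 2 under DESeq2, to be read against the same shares, with a median log2 fold change of -0.0339. Among these the smallest p was that of Tob1, an antiproliferative protein, at 51.7 ± 3.91 and 66.9 ± 5.67 CPM.

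Receptors and targets held the only other calls. Of 10 receptor genes, 2 were lower past the threshold: the targeted Tgfbr2 (log2 fold change -0.71, limma adjusted p 0.0207) and Tgfbr3, which encodes the co-receptor betaglycan and measured 49.2, 63.7 and 29.2 CPM in the Ctrl libraries against 5.65, 4.02 and 2.497 CPM in the cKO ones (limma adjusted p 0.0156). Under edgeR without the block neither passed (0.0687 and 0.0553); Tgfbr2 also missed the threshold under TMM scaling (0.0940) and median-ratio factors (0.0522), and Tgfbr3 under limma-voom (0.0939). Tgfbr2 passed in 1 of the 6 fits that each left out a library, that without cKO replicate 3 (adjusted p 0.0299 there and up to 0.155 in the others), and Tgfbr3 lost its call without Ctrl replicate 1 (0.101), Ctrl replicate 2 (0.0908) or cKO replicate 2 (0.0916). Of 11 tested target genes only Itgae passed, at 738 ± 110.5 CPM in Ctrl against 30.1 ± 12.8 CPM in cKO (limma adjusted p 0.00403), and the median log2 fold change of that list was -0.0332. At an unadjusted limma p under 0.05, 3 of the 11, Itgae among them, were lower and 0 higher, against 3.68% of all tested genes lower. DESeq2 called 2 of these targets, against 3.53% of all tested genes in either direction. Itgae kept its call without any single library and missed it in replicates 1 and 2 alone (adjusted p 0.176). Over these lists and the SPSB and CAS paralogs, 3 genes passed in all, each lower, while DESeq2 called 8, of which 3 were higher.

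**Figure D5:**
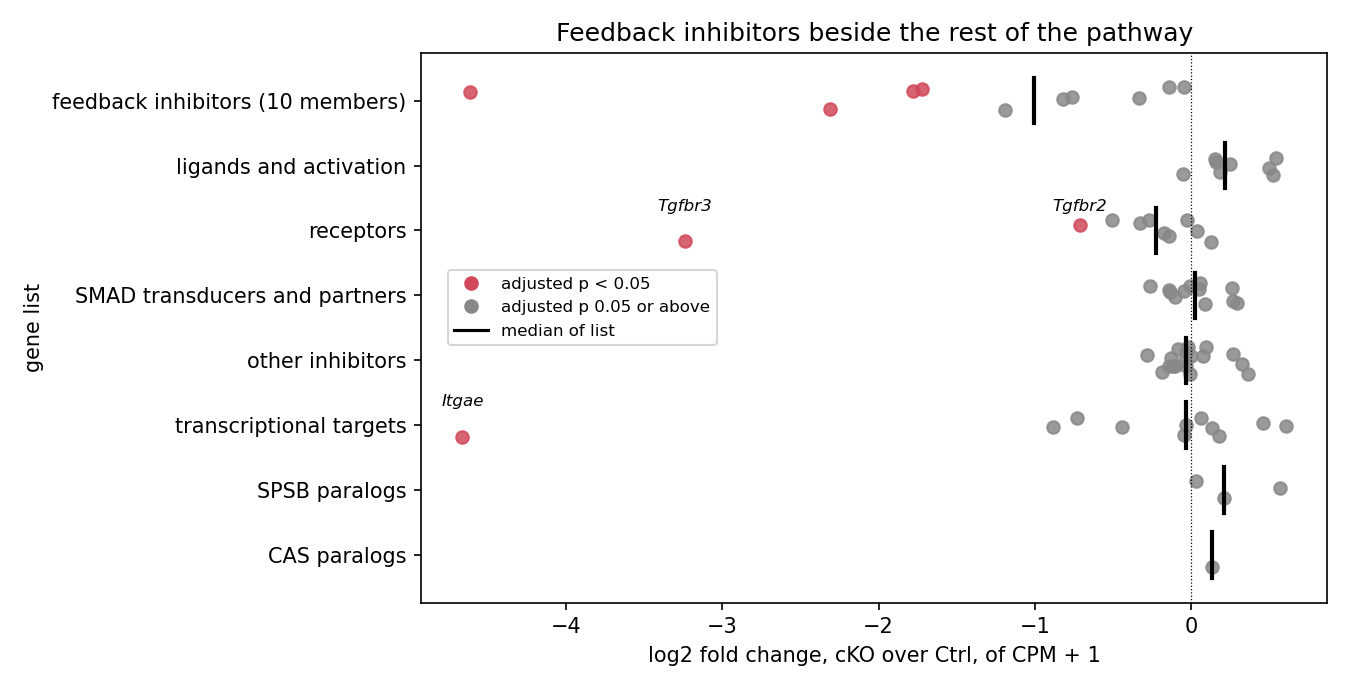
Log2 fold change of CPM + 1, cKO over Ctrl, of every tested gene in each list, with red points past a limma adjusted p of 0.05, grey points not past it and a black line at the list's median. The feedback inhibitors have their median at -1.01, whereas those of the other lists lie between -0.22 and 0.22. The list of CAS paralogs holds 1 tested gene. Members and lists were chosen with earlier results of these data known, so the contrast is not an independent test.

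For each member past the threshold, the genes with the most similar values over the 6 libraries were found among 10043 genes averaging 5 CPM or more, as the root mean square difference of log2(CPM + 1) after centring each gene. Nearest to Ski were Oplah (difference 0.136), Abhd14a (0.155) and Mapkapk3 (0.172). Skil had Gtf2ird1 (0.202), Amz1 (0.230) and Adrb1 (0.244), and Pmepa1 had Gbp3 (0.144), Sulf2 (0.202) and again Abhd14a (0.224). For Spsb1 the nearest were B4galnt4 (0.374), Ccr8 (0.393) and Apol9b (0.556), more distant than for the other 3 members. All of these genes were lower in cKO past the limma threshold, as the choice by likeness to lower genes entails.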

How the data were processed

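RNA was measured in 3 Ctrl and 3 cKO libraries. Per the submitters' processing notes the authors used Trimmomatic 0.33, STAR 2.5.2, HTSeq 0.6.1 and edgeR with the build mm10; whether counting used strand is not given in the sources used here. The deposited table holds CPM per library, computed by the authors, and, per the file headers, their log2 fold change, average log2 CPM, likelihood-ratio score, p-value and adjusted p-value. Its columns name WT and KO, taken as Ctrl and cKO because tissue and replicate numbers match. The CPM values were whole multiples of 1 read for 100% of values (tolerance 0.01 read), so reads were recovered; 1 read was worth 0.0147 to 0.0347 CPM and intervals cover counting error only. Members share exon bases with genes outside the table in 3 cases: Spsb1 with the antisense Gm13070 (103 bases), Nedd9 with the antisense Gm32401 (62) and Smurf2 with Gm27322 (58).

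The test was limma 3.58.1 in R 4.3.3 (trend, robust) on log2(CPM + 1), which understates changes of low genes, for genes averaging 1 CPM or more, with group as the only term and Benjamini-Hochberg adjustment over these genes; the script was tested on simulated data. Alternatives used edgeR 4.0.16, DESeq2 1.42.0 and limma-voom on recovered reads, other scalings, pseudocounts and filters, a block, and left-out libraries. Labels give both groups the replicate numbers 1 to 3. Deviations from the group means correlated at 0.855, 0.687 and 0.924 across genes for same-numbered libraries. Replicates 1 and 2 also correlated across numbers. Ctrl replicate 1 with cKO replicate 2 gave 0.578, and Ctrl replicate 2 with cKO replicate 1 gave 0.718, above its 0.687 with cKO replicate 2. These values set replicate 3 apart but do not settle how replicates 1 and 2 pair. That the numbers pair libraries is thus an assumption of the block and of the same-numbered comparisons. The members and lists were chosen with earlier results of these data known. All members and Tgfbr2 are named; from other lists, genes past the threshold or, with none, the one with the smallest p, with single genes added after their values were seen (Smad3, Tgfb1, Itch, Wwp1 and the paralogs).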

Additional observations from a re-analysis of the deposited data

How the results depend on the processing

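Counts of calls moved with the test, the block and single libraries, and the cause was not tested. Against 4 members called, all lower, the replicate block gave 7, also with TMM scaling, with edgeR plus block and with DESeq2. edgeR without the block gave 1 and a threshold of 0.01 gave 2. The other alternatives gave 3 to 6, and leaving out one library gave 1 to 4, with 0 higher throughout. All tested genes called went from 104 (72 lower, 32 higher) to 451 (257, 194) with the replicate block, 513 (248, 265) with the block and TMM scaling, 469 (244, 225) with edgeR and block, 554 (272, 282) with DESeq2, 296 (170, 126) in replicates 1 and 2, 62 (46, 16) with limma-voom, 40 (29, 11) with edgeR and 26 (22, 4) at 0.01; TMM scaling alone gave 20 higher. Without one library the totals ran from 14 to 97 (10 to 72 lower, 3 to 25 higher). Wider pathway calls, 3 and all lower, were 1 under edgeR and at 0.01, 8 (5 lower, 3 higher) under DESeq2 and 1 to 4 without one library. Of the 10 members, 9 were lower in all 20 alternatives and left-out fits. These fits reuse the same 6 libraries, and the limma block, the filters and the 0.01 threshold leave the estimate unchanged. The signs were therefore largely bound to agree. Over all genes this was not counted, and in the main fit 9265 of 15691 tested genes were lower.

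Nedd9, with a difference near 0, changed sign: 0.0208 under TMM scaling with or without the block, 0.00907 under median-ratio factors, 0.00753 with edgeR and 4.27e-05 with its block, 0.0132 with DESeq2, 0.00155 with limma-voom and from -0.0896 to 0.0226 without one library, the latter without cKO replicate 1. The levels of Spsb1 and Pmepa1 in cKO rest on low read numbers, so counting error adds to their spread there. For Spsb1 the cKO libraries differed by more than counting error, with a coefficient of variation of 68.6%.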
